A study of Mus musculus with 39 samples.

Results

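The core circadian clock loop was followed in mouse duodenum through its 10 genes: Clock, Arntl, Npas2, Per1, Per2, Per3, Cry1, Cry2, Nr1d1 and Nr1d2. They were chosen by symbol, as the transcription factors and repressors that form the loop, and all 10 were found among the 16358 genes of the deposited count table. The table held 39 bulk RNA sequencing libraries of whole duodenum from WT male C57BL/6 mice aged 8 weeks. Every mouse, controls included, carried a cannula into a brain ventricle, placed 3 days earlier, ate standard chow and lived in a daily light/dark cycle. Food was withdrawn 1 h after lights came on, the injection followed 2 h later, and tissue was collected 2 h after the injection. The Saline-water group (14 libraries) drank plain water and received sterile saline into the ventricle. The Leptin-water group (13 libraries) drank plain water and received 3 µg of leptin, a hormone of fat cells that lowers food intake through the hypothalamus. The Saline-antibiotic and Leptin-antibiotic groups (6 libraries each) received the same injections after 48 h of drinking water with ampicillin at 1 g/L and neomycin at 0.5 g/L. The libraries carry names of 2 kinds, here called set M (8 Saline-water and 7 Leptin-water) and set MT (6 of each of the 4 groups). The clock time at which each library's tissue was taken, and the meaning of the sets, are not given here by any source.

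In this loop CLOCK, or its relative NPAS2, pairs with BMAL1, the product of Arntl, and the pair binds E-box sequences and activates the Per, Cry and Nr1d genes. PER and CRY proteins enter the nucleus and repress the pair, while REV-ERB alpha and REV-ERB beta, the products of Nr1d1 and Nr1d2, repress Arntl through sites that they share with the ROR activators. In tissues with a running clock, Arntl transcripts are therefore high when those of the Per and Nr1d genes are low, and in the intestine the phase follows the time of feeding. Per1 is also a direct target of the glucocorticoid receptor and of CREB.

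The sequences just before the transcription start were searched for exact matches to 5 short motifs. Sites elsewhere in or near the genes were not searched, so a window without a match does not mean that the gene lacks the element. RefSeq promoters (assembly GRCm38.p6) were matched by symbol for 9 of the 10 genes, with 13 start sites in all, and the 250 bases before each start were searched on both strands. The 5 windows printed here are those of the gene with the widest spread between libraries (Per3), of its opposite in the loop (Arntl), of 2 genes that rose after leptin (Per1 and Nr1d2), and of a gene with both kinds of E-box (Cry1). Each is written in the direction of its gene, and capitals mark motif matches.
Per3, chr4:151044666-151044915, minus strand: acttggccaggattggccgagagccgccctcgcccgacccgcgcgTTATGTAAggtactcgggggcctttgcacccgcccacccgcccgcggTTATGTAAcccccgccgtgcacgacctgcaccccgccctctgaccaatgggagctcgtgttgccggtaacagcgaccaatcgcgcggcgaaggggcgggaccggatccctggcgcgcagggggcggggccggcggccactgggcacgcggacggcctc
Arntl, chr7:113207215-113207464, plus strand: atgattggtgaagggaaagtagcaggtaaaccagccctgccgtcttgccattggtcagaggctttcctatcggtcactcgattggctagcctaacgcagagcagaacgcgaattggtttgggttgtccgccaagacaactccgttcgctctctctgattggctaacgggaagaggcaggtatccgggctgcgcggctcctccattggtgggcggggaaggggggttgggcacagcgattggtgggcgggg
Per1, chr11:69098699-69098948, plus strand: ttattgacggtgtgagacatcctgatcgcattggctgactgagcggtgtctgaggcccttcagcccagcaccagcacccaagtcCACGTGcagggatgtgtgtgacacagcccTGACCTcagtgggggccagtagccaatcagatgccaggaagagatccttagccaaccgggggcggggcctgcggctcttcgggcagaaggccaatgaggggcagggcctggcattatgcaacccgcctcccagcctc
Nr1d2, chr14:18239107-18239356, minus strand: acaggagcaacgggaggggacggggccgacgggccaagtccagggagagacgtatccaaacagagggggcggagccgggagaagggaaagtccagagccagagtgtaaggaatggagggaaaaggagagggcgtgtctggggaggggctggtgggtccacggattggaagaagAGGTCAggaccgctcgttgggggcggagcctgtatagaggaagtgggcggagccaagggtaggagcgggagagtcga
Cry1, chr10:85185055-85185304, minus strand: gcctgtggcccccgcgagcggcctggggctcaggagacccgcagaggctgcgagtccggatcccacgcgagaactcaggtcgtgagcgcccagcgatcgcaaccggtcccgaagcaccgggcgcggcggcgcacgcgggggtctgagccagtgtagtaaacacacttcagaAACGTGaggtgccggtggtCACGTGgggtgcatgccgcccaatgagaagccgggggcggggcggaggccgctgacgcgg
The D-box TTATGTAA, the element of the output factors DBP, TEF, HLF and NFIL3, stood in the Per3 window at 205 and 158 bases before the start, and 0.819% of the 32851 promoters of the table held one. The E-box CACGTG (6.02% of promoters) stood in the Cry1 window at 60 bases and in the Per1 window at 166 bases before the start. Its variant CACGTT (3.85%) was matched, as AACGTG on the other strand, in the Cry1 window at 79 bases, in Cry2 at 166 bases and in Nr1d1 at 28 bases. The ROR and REV-ERB half-site AGGTCA (14.0%) was matched in the Nr1d2 window at 77 bases, in the Per1 window at 137 bases as TGACCT, and at 119 bases before 1 of the Clock starts. The cAMP response element TGACGTCA (1.55%) was matched before no start of the 9 genes, and the Arntl window held no match to any of the 5 motifs. In the GENCODE vM21 annotation the Per3 window lies inside the span of Camta1, and the Per1 window lies inside the span of Per1 itself, since a longer transcript starts upstream. The last 10 bases of the Cry1 window and the last 21 of the Nr1d2 window are annotated there as the first exon of those genes.

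Library totals were 30207536 to 67870777 counts (median 48282125), and the 10 genes had between 359 (Cry1) and 9632 (Nr1d1) counts in a library, so all 10 were tested in every comparison. The 9 duodenal identity genes (Pdx1, Cdx2 and Gata4 among them) were above 0 in every library, and so were 5 genes of a distal ileum list (Slc10a2, Slc51a, Slc51b, Mep1b and Cubn; list mean 4.72 to 5.96 log2 CPM, the log2 of counts scaled to library size). Among these 5 the ileal bile acid transporter gene Slc10a2 held 0.639 to 3.19 CPM, whereas Mep1b held 258 to 547 CPM. The sixth, Fabp6, was absent from the count table, which its authors named as filtered. The mean of the exocrine pancreas list (18 genes, 10 of them at 0 in at least 1 library) was 5.24 to 6.13 log2 CPM in 6 libraries, namely 3 Saline-antibiotic (1, 2 and 5), 2 Leptin-water (6 and 10) and 1 Leptin-antibiotic (3). A call after leptin that ends without these libraries is given with its value without them. The comparisons on antibiotic were fitted in set MT, to which Leptin-water 6 does not belong. Leaving the rest out took away 3 of the 6 Saline-antibiotic libraries and 1 of the 6 Leptin-antibiotic libraries. For a call lost there, fewer libraries and pancreas tissue cannot be told apart. In bulk tissue, fewer cells of a type and less RNA per cell cannot be told apart.

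All 10 genes were expressed, and REV-ERB transcripts were the most abundant per length. On the scale of CPM (counts scaled to library size) per kilobase of annotated exon (CPM/kb), Nr1d1 (chr11:98767932-98775333, minus strand) stood at 41.5 ± 7.36 (SD, n = 39). Nr1d2 (chr14:18204054-18239127, minus strand) followed at 20.5 ± 3.17, below Nr1d1 in 39 of 39 libraries. Clock (chr5:76209868-76304792, minus strand) at 11.5 ± 1.40 and Per1 (chr11:69095217-69109960, plus strand) at 11.4 ± 3.33 did not differ beyond their spread. These 4 genes include both REV-ERB genes, 1 activator and 1 of the Per genes. Per2 (chr1:91415982-91459324, minus strand) stood at 8.40 ± 2.27 CPM/kb and Npas2 (chr1:39193731-39363236, plus strand) at 5.08 ± 1.01. Per3 (chr4:151003652-151044665, minus strand) at 3.65 ± 1.01, Cry1 (chr10:85131700-85185064, minus strand) at 3.59 ± 0.619 and Cry2 (chr2:92403646-92434043, minus strand) at 3.29 ± 0.616 were not separated from their neighbours in the order beyond the spread. Arntl (chr7:113207465-113314126, plus strand) was the lowest, at 2.24 ± 0.672 CPM/kb, and was below Cry2 in 33 of 39 libraries, although this step too was within the spread. Gene positions are GENCODE vM21 on GRCm38. An opposite-strand gene shares 8.55% of the exon bases of Nr1d1 (Thra), 4.67% of those of Cry2 (D930015M05Rik) and 0.439% of those of Arntl (Gm45355). The strand setting of the counting is not given, so reads of these stretches may belong to either gene.

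**Figure D1:**
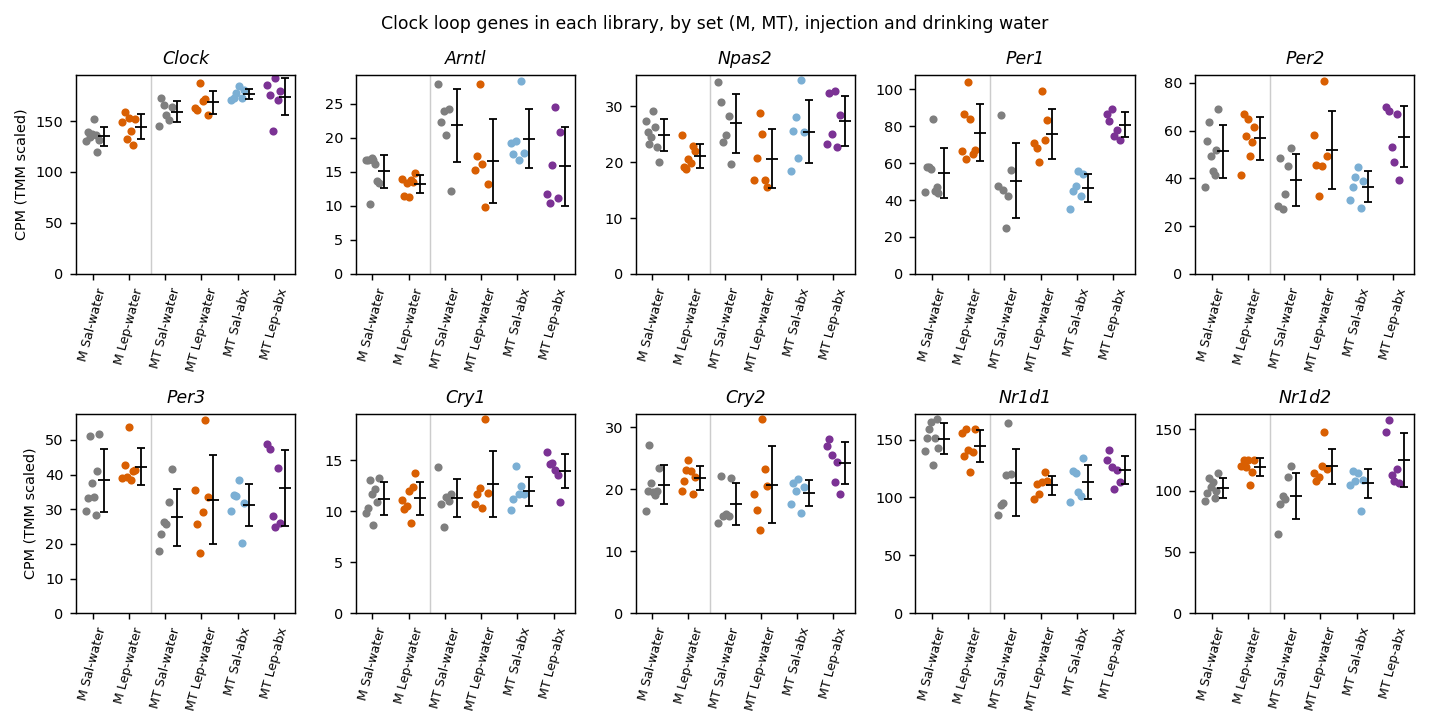
Each point is 1 library, in CPM after TMM scaling (y axis, from 0), with 1 panel per loop gene and the 6 combinations of set, injection and drinking water along the x axis; Sal is saline, Lep leptin and abx antibiotic, and bars are mean ± SD (n = 8, 7, 6, 6, 6 and 6). Per1 is the gene whose Leptin-antibiotic libraries (72.7 to 89.5) all lie above the Saline-antibiotic libraries (35.4 to 55.6), and Arntl and Per3 spread more widely in set MT than in set M.

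Leptin was followed by higher Per1, Per2 and Nr1d2 transcripts, and no loop gene fell. Over all 39 libraries, with set and drinking water as terms, 3 of the 10 genes rose and 0 fell, where 3.01% of 16358 genes passed the test in either direction, 2.21% as higher and 0.795% as lower. The log2 fold change of leptin over saline was 0.61 for Per1 (SE 0.10, adjusted p = 0.000351), 0.38 for Per2 (SE 0.10, adjusted p = 0.0334) and 0.26 for Nr1d2 (SE 0.06, adjusted p = 0.00716). The median over the 10 genes was 0.16, beside −0.01 over all genes tested. Per2 missed the threshold without the 6 pancreas-high libraries (0.35, adjusted p = 0.0894, within 0.00945 to 0.0894 over all alternatives), whereas Per1 (0.58, adjusted p = 0.00441) and Nr1d2 (0.26, adjusted p = 0.0243) passed. With limma voom Per2 missed it too (0.33, adjusted p = 0.0545). Without set M only Per1 passed, with Per2 at 0.54 (adjusted p = 0.0535) and Nr1d2 at 0.29 (adjusted p = 0.0848).

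Among the activators, Arntl, which encodes BMAL1, had lower means after leptin in each stratum, but the groups overlapped and the test was not passed. In set M on water, saline libraries held 10.3 to 17.1 CPM (median 16.4) and leptin libraries 11.3 to 14.8 (median 13.5). In set MT on water the values were 12.2 to 27.9 (median 23.1) with saline and 9.90 to 28.0 (median 15.7) with leptin, and with antibiotic they were 16.8 to 28.4 (median 18.5) and 10.4 to 24.6 (median 13.9). All 7 leptin libraries of set M, 5 of 6 of set MT on water and 4 of 6 on antibiotic lay below the median of their saline group. The log2 fold change was −0.29 on water (SE 0.12, adjusted p = 0.329), −0.32 on antibiotic (adjusted p = 0.475) and −0.30 over all libraries (SE 0.11, adjusted p = 0.127).

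Npas2, the relative of Clock that can take its place beside BMAL1, gave unlike values on water and on antibiotic. Saline libraries held 20.1 to 29.2 CPM (median 24.9) and leptin libraries 18.8 to 24.8 (median 20.6) in set M, and in set MT on water 19.7 to 34.3 (median 26.6) and 15.6 to 28.8 (median 18.8). With antibiotic the ranges were 18.5 to 34.7 (median 25.4) with saline and 22.7 to 32.7 (median 26.8) with leptin. On water 3 leptin libraries of each set lay below every saline library of that set, and with antibiotic none did. The log2 fold change was −0.30 on water (SE 0.09, adjusted p = 0.132) and 0.11 on antibiotic (adjusted p = 0.752). The test of that difference gave 0.49 (SE 0.23, unadjusted p = 0.043, adjusted p = 0.772). Clock itself was nearly level, with log2 fold changes of 0.09 on water, −0.01 on antibiotic and 0.06 over all libraries (adjusted p = 0.414).

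Per1, a repressor gene that glucocorticoids and cAMP also induce, was the loop gene with the largest difference after leptin. Its saline libraries held 43.9 to 83.7 CPM (median 52.0) in set M and 25.1 to 86.3 (median 46.4) in set MT on water, and its leptin libraries 62.4 to 104 (median 66.9) and 60.4 to 98.8 (median 71.7). The 2 highest saline libraries, Saline-water 5 at 83.7 and Saline-water 10 at 86.3, reached into the leptin range, and all 13 leptin libraries lay above the saline median of their set. With antibiotic, the saline libraries were at 35.4, 42.2, 44.9, 47.5, 54.0 and 55.6 CPM and the leptin libraries at 72.7, 74.7, 78.0, 82.8, 86.8 and 89.5. Those 6 and 6 libraries did not overlap, as was the case for 1.6% of all genes in the higher direction. On water the log2 fold change of 0.53 (SE 0.13) missed the threshold (adjusted p = 0.0708, within 0.00855 to 0.699 over the alternatives).

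On antibiotic Per1 was the only one of the 10 genes that passed, at 0.80 (SE 0.18, adjusted p = 0.0397), where 0.514% of 16340 genes passed in either direction and 0.459% as higher. Without the pancreas-high libraries of set MT its log2 fold change was 0.60 (adjusted p = 0.514, within 0.0016 to 0.514 over the alternatives). Per1 also missed the threshold in 16 of 24 fits that each left out 1 library (adjusted p = 0.0089 to 0.145). On water 0 of the 10 genes passed with edgeR, although 6 had an unadjusted p under 0.05, beside 11.45% of all genes; 0.312% of 16356 genes passed in either direction. DESeq2 and limma voom each called 2 of the 10 on water, Per1 and Nr1d2. The enterocyte list moved in the same direction on antibiotic: its mean was 10.6 to 11.3 log2 CPM with saline and 11.2 to 11.8 with leptin, and all 12 of its genes were positive, none past the threshold. The covariates used here were the means of the pancreas, smooth muscle and stomach lists, and the enterocyte list was not among them. With these covariates the Per1 value on antibiotic was 0.74 (adjusted p = 0.12).

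Per2, a central repressor partner of the CRY proteins, differed most on antibiotic. Saline libraries with antibiotic held 27.6, 31.1, 36.3, 38.9, 40.6 and 44.9 CPM, and leptin libraries 39.3, 46.8, 53.3, 67.0, 68.3 and 69.8. In that stratum 5 of 6 leptin libraries lay above every saline library, and Leptin-antibiotic 6 overlapped with them. The log2 fold change was 0.66 (SE 0.19, adjusted p = 0.102), which DESeq2 called (adjusted p = 0.0226, within 0.0226 to 0.61 over the alternatives). On water the ranges overlapped widely, from 36.6 to 69.1 CPM (median 50.6) with saline and 41.5 to 67.0 (median 57.9) with leptin in set M, and from 27.1 to 52.7 (median 39.2) and 32.8 to 80.8 (median 47.7) in set MT. The log2 fold change there was 0.26 (adjusted p = 0.422).

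Per3, the Per gene least needed for a running clock, did not pass in any leptin comparison, with log2 fold changes of 0.18 on water (adjusted p = 0.648), 0.22 on antibiotic (adjusted p = 0.65) and 0.19 over all libraries (adjusted p = 0.389). With antibiotic its leptin libraries stood at 25.0, 26.1, 27.9, 41.9, 47.4 and 48.7 CPM, around saline values of 20.2 to 38.3. The 3 highest, Leptin-antibiotic 1, 2 and 5, were the 3 lowest for Arntl (10.4 to 11.7 CPM). They were also the 3 highest for Per2 and for Nr1d2.

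The cryptochromes, which repress CLOCK and BMAL1 directly, gave smaller values. Cry2 had a log2 fold change of 0.15 on water (adjusted p = 0.606), 0.33 on antibiotic (adjusted p = 0.267) and 0.20 over all libraries (adjusted p = 0.144). With antibiotic 4 of 6 leptin libraries for Cry2 (19.2 to 28.1 CPM, median 25.0) lay above every saline library (16.1 to 21.6, median 20.1). Cry1 had log2 fold changes of 0.07, 0.23 and 0.12 in the same 3 comparisons, with adjusted p-values of 0.82, 0.382 and 0.398.

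Of the REV-ERB genes, which repress Arntl, Nr1d2 passed the leptin test over all libraries and Nr1d1 did not. Nr1d2 libraries of set M held 91.7 to 114 CPM (median 102) with saline and 105 to 125 (median 120) with leptin, and 6 of 7 leptin libraries lay above every saline library. In set MT on water the ranges were 64.9 to 120 (median 94.6) and 108 to 148 (median 116), and with antibiotic 83.1 to 116 (median 109) and 106 to 158 (median 115). The log2 fold change was close in the 3 strata, at 0.22 in set M, 0.32 in set MT on water and 0.25 with antibiotic, and on water as a whole it was 0.27 (SE 0.07, adjusted p = 0.0708). Nr1d1 gave −0.05 on water (adjusted p = 0.844), 0.14 on antibiotic (adjusted p = 0.575) and 0.01 over all libraries (SE 0.06, adjusted p = 0.975). Whether the leptin effect differed between Nr1d1 and Nr1d2 was not tested.

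**Figure D2:**
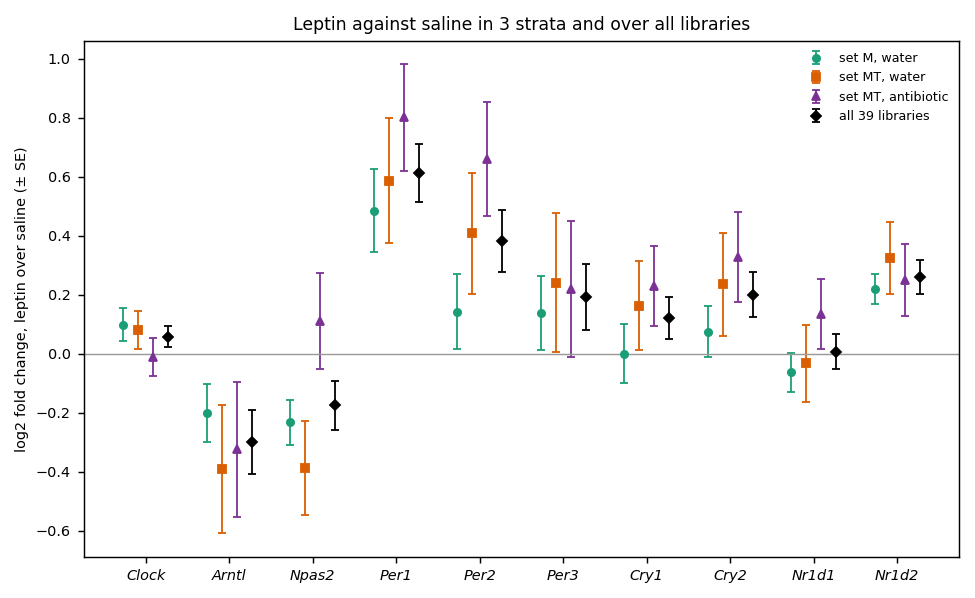
Log2 fold change of leptin over saline (y axis, points ± SE) for each loop gene (x axis), fitted in set M on water (7 against 8 libraries), set MT on water (6 against 6), set MT on antibiotic (6 against 6) and over all 39 libraries. Per1 (0.49, 0.59 and 0.80) and Nr1d2 (0.22, 0.32 and 0.25) are positive in the 3 strata, Arntl (−0.20, −0.39 and −0.32) is negative in them, and Npas2 is negative on water and at 0.11 on antibiotic.

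The leptin comparisons on water and over all libraries share samples, as do those on antibiotic and over all, so their values are set side by side and none supports another. Whether leptin acted differently with antibiotic than with water was tested in set MT, and this difference was past the threshold for 0 of the 10 genes and for 0% of 16340 genes with edgeR, DESeq2 and limma voom alike. Of the 10 genes, Npas2 alone had an unadjusted p under 0.05 in that edgeR test, as did 6.383% of all genes. The differences of the other 9 genes lay between −0.10 and 0.24, with standard errors of 0.09 to 0.33. The difference of the leptin effect between the sets was past the threshold for 0 of the 10 genes with all 3 tools and for 0.0428% of 16356 genes with edgeR. These differences lay between −0.18 and 0.28, and 0 of the 10 had an unadjusted p under 0.05.

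Antibiotic without leptin gave no call among the loop genes, which with 6 libraries in each group does not show that their levels were equal. In saline mice 0 of the 10 genes passed with edgeR, DESeq2 or limma voom, where 0.196% of 16340 genes passed with edgeR, and the log2 fold changes lay between −0.12 and 0.18. Clock was the 1 gene with an unadjusted p under 0.05. Its libraries held 145 to 173 CPM (median 160) on water and 171 to 184 (median 175) with antibiotic, a log2 fold change of 0.16 (SE 0.06, unadjusted p = 0.0206, adjusted p = 0.319). Of the 6 antibiotic libraries, 5 lay above every water library.

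In leptin mice, antibiotic against water again gave 0 of 10 genes past the threshold with edgeR and DESeq2, where 2.28% of 16340 genes passed with edgeR. The log2 fold changes lay between −0.06 and 0.42. Npas2, at 15.6 to 28.8 CPM on water and 22.7 to 32.7 with antibiotic, had the largest (0.42, SE 0.16, unadjusted p = 0.0159, adjusted p = 0.159), and all 6 antibiotic libraries lay above the water median. Limma voom called it (0.51, adjusted p = 0.0291, within 0.0291 to 0.33 over the alternatives).

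Clock, Arntl and Nr1d1 differed between the sets, as did many genes outside the loop. In saline mice on water, 3 of the 10 genes passed the test of set MT against set M, where 17.3% of 16356 genes did, 8.28% higher and 8.97% lower in set MT. An unadjusted p under 0.05 was held by 5 of the 10 and by 31.35% of all genes. Whether the loop differed more than other genes was not tested. Clock was higher in set MT, at 145 to 173 CPM (median 160) beside 120 to 152 (median 135), a log2 difference of 0.23 (SE 0.06, adjusted p = 0.0074). Arntl was higher, at 12.2 to 27.9 CPM (median 23.1) beside 10.3 to 17.1 (median 16.4), a difference of 0.52 (SE 0.17, adjusted p = 0.0314, within 0.00604 to 0.136 over the alternatives). Limma voom did not call it (0.385, adjusted p = 0.0932). Nr1d1, the repressor of Arntl, was lower in set MT, at 84.7 to 164 CPM (median 107) beside 128 to 168 (median 151), a difference of −0.43 (SE 0.10, adjusted p = 0.00497). For Nr1d1, 5 of 6 set MT libraries lay below every set M library, and for Arntl 5 of 6 lay above.

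Per3 (−0.47, adjusted p = 0.0879), Per2 (−0.40, adjusted p = 0.119) and Cry2 (−0.24, adjusted p = 0.224) were negative without passing, and Per1, Nr1d2, Npas2 and Cry1 lay between −0.12 and 0.11. Dbp, a clock output gene that BMAL1 and CLOCK drive, was also lower in set MT (−0.89, adjusted p = 0.0219), at 6.54 to 28.9 CPM beside 23.0 to 53.9. For Dbp the call ended with 3 tissue lists as covariates (−0.79, adjusted p = 0.118). Tissue lists differed between these groups too. The stomach and Brunner gland list held 4.8 to 7.99 log2 CPM in set M and 4.33 to 6.43 in set MT, with 11 of 11 genes negative, 3 of them past the threshold and a median log2 difference of −1.02. The macrophage list held 3.68 to 4.09 and 3.86 to 4.57 (8 of 8 genes positive, 2 called), and the enteric neuron and glia list 0.811 to 1.55 and 1.48 to 1.74 (10 of 12 positive, 4 called). The lymphocyte list held 2.58 to 3.29 and 2.99 to 3.66 (7 of 9 positive, 1 called). Beside these list counts, 17.3% of all genes tested were called in this comparison. Of the exocrine pancreas list 16 of 18 genes were positive and 0 called, with 1 gene at an unadjusted p under 0.05. The part of these tissues in the clock values was not tested beyond the covariates. With the pancreas, smooth muscle and stomach lists as covariates Clock and Nr1d1 passed and Arntl did not (0.46, adjusted p = 0.136). Set and anything else that differed between the sets cannot be told apart.

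Within a group, the loop genes differed more between libraries than most genes of like expression, apart from Clock. After the mean of each set and group was taken away, the SD of log2 CPM was 0.383 for Per3, 0.364 for Arntl, 0.336 for Per2 and 0.326 for Per1, beside 0.164 for the median gene. Of genes within 0.5 log2 CPM in expression, 98.2% had less spread than Per3, 96.7% less than Per2, 96.5% less than Per1 and 95.3% less than Arntl. Npas2 (0.256), Cry2 (0.246), Cry1 (0.225), Nr1d2 (0.191) and Nr1d1 (0.190) lay between, and Clock, at 0.107, had more spread than 39.5% of its like. For 9 of the 10 genes the libraries of set MT spread more than those of set M, with a ratio of 2.24 for Nr1d2, 2.06 for Arntl and 1.91 for Npas2, beside 1.3 for the median gene. Clock was the exception, at 0.949. Cry1 (1.13) and Per1 (1.15) also lay below the ratio of the median gene, and Per2 was level with it at 1.3.

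These deviations were shared between the loop genes. A library with more Arntl than its group also had more Npas2 and less Per3, Per2, Nr1d2 and Cry2. Of the 45 pairs of genes, 16 had adjusted permutation p-values of at most 0.05 for both Pearson's r and Spearman's rho (two-sided, 100000 orders drawn within set and group, adjusted over the 45 pairs), 10 of them positive and 6 negative. All 16 had the same sign in both sets. The libraries of a pair share depth and tissue make-up, so r describes how the 2 genes varied together and not how one acts on the other.

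The strongest pair was Arntl and Per3, with r = −0.895 and rho = −0.827 over 39 libraries (both permutation p = 1e-05, the smallest that 100000 orders can give, adjusted p = 9e-05). It was −0.793 in set M (15 libraries), −0.919 in set MT (24 libraries), −0.866 without the 2 libraries farthest out for Arntl and −0.869 without the pancreas-high libraries. Arntl also ran against Per2 (r = −0.776, rho = −0.745), against Nr1d2 (r = −0.715, rho = −0.621) and against Cry2 (r = −0.693, rho = −0.732), each with a permutation p of at most 0.00017 and an adjusted p of at most 0.000675. In the same order these r were −0.652, −0.504 and −0.712 in set M, −0.822, −0.745 and −0.694 in set MT, and −0.728, −0.704 and −0.601 without the 2 farthest libraries. Arntl ran with Npas2 (r = 0.667, rho = 0.635, permutation p = 4e-05 and 9e-05, adjusted p = 0.0003 and 0.0005; 0.565 and 0.685 in the sets, 0.562 without the 2 farthest).

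Per2 and Per3 ran together (r = 0.845, rho = 0.810; 0.807 in set M, 0.862 in set MT and 0.795 without the 2 farthest), as did Per3 and Nr1d2 (r = 0.837, rho = 0.836; 0.758, 0.858 and 0.859 in the same order). Both pairs had a permutation p of 1e-05 and an adjusted p of 9e-05 for each measure. Ranks were taken among 12638 genes with a mean of at least 1 log2 CPM. Predicted or unnamed genes (Gm followed by digits, or names ending in Rik) were left out. In this ranking Per3 had the lowest correlation with Arntl, and Per2 and Nr1d2 ranked 12635 and 12632. Npas2 ranked 11 from the top.

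**Figure D3:**
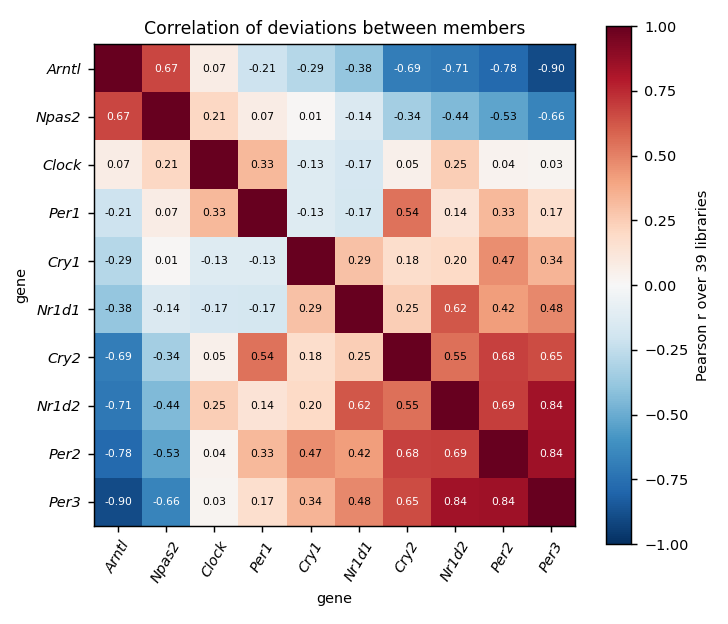
Pearson's r (colour scale and printed value, −1 to 1) between the deviations of each pair of loop genes over 39 libraries, with genes along both axes in the order of their r with Arntl. Arntl and Npas2 (0.67) form 1 block, Cry2, Nr1d2, Per2 and Per3 the opposite block, and Clock, Per1 and Cry1 show weak values with most of the others.

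Per1, Clock and Cry1 stood apart from this pattern. Per1 had r = −0.209 and rho = −0.310 with Arntl (permutation p = 0.237 and 0.0536, adjusted p = 0.356 and 0.0928; −0.136 in set M and −0.237 in set MT, −0.115 without the 2 farthest libraries for Arntl). Its only pair among the 16 was with Cry2 (r = 0.541, rho = 0.593, permutation p = 0.0004 and 0.00018, adjusted p = 0.0015 and 0.000675). That pair had r = 0.273 in set M, 0.644 in set MT and 0.540 without the 2 farthest. Clock and Cry1 had no pair among the 16. Nr1d1 ran with Nr1d2 in set MT (r = 0.697) and less in set M (r = 0.239), with 0.622 over all (rho = 0.570, permutation p = 0.00098 and 0.00039, adjusted p = 0.00315 and 0.00125; 0.516 without the 2 farthest). The difference between the sets was not tested.

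Genes outside the loop with the most similar deviations were named for Arntl, Per1 and Nr1d1. They came from 12629 genes kept by the same rule, and are a description without a test since they were picked for their r. With Arntl the highest were Dab1 (0.773), Stk38 (0.772), Pnp2 (0.745), Nfil3 (0.741), a repressor at D-boxes, and Aagab (0.695). In set M these r were lower, at 0.247, 0.313, 0.637, 0.584 and 0.42 in that order. In set MT they were 0.896, 0.841, 0.767, 0.829 and 0.748. The lowest were Dbp (−0.827), Tef (−0.816), Ciart (−0.747), Slc20a1 (−0.721) and Hlf (−0.708). Their r lay between −0.717 and −0.461 in set M and between −0.85 and −0.732 in set MT. Dbp, Tef and Hlf encode the D-box activators of clock output, and Ciart encodes a repressor of CLOCK and BMAL1. Per1 had other companions: Tsc22d3 (0.791), whose product GILZ is induced by glucocorticoids, Herpud1 (0.774), Kcnk5 (0.77), Noct (0.764), which encodes the rhythmic phosphatase nocturnin, and Tob2 (0.761). Its lowest were Tmco6 (−0.649), Dusp10 (−0.61), Irf8 (−0.605), Prkab1 (−0.596) and Trip6 (−0.595). The r of Per1 with Tsc22d3 was 0.942 in set M and 0.705 in set MT.

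**Figure D4:**
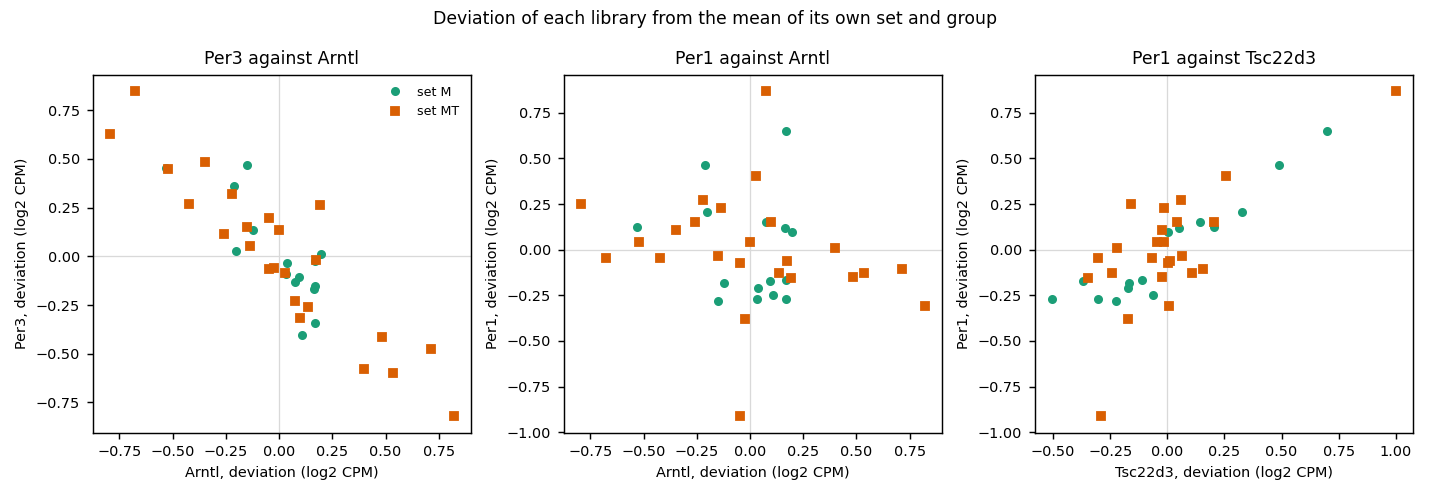
Each point is 1 library, as its deviation in log2 CPM from the mean of its own set and group (circles set M, squares set MT), for Per3 against Arntl, Per1 against Arntl and Per1 against Tsc22d3. Per3 is lower where Arntl is higher (r = −0.895), Per1 shows little relation to Arntl (r = −0.209), and Per1 follows Tsc22d3 (r = 0.791).

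Genes around the loop were read from 4 lists: modifiers of clock proteins, clock output, glucocorticoid response and immediate early genes. Set beside each list, 0.312% of all genes tested passed in either direction on water, 0.514% on antibiotic and 3.01% over all libraries. With antibiotic, 1.6% of all genes had every leptin library above every saline library. Of 20 clock regulators (kinases, ubiquitin ligases, ROR and BHLHE40 factors), 0 passed after leptin on water, 1 rose on antibiotic and 3 rose over all libraries. Usp2, a deubiquitinase of clock proteins, rose on antibiotic (0.71, adjusted p = 0.0183). Its saline libraries held 51.3 to 76.4 CPM (median 69.5) and its leptin libraries 85.5 to 141 (median 111), with no overlap. Without the pancreas-high libraries of set MT its value on antibiotic was 0.53 (adjusted p = 0.369), and with the tissue lists as covariates 0.64 (adjusted p = 0.0702), so neither passed. Over all libraries Usp2 (0.39), Ciart (0.52, adjusted p = 0.0199) and Fbxw11 (0.09, adjusted p = 0.048), a ubiquitin ligase subunit that recognises PER proteins, rose. Without the pancreas-high libraries Usp2 (0.34, adjusted p = 0.0285) and Ciart (0.49, adjusted p = 0.0465) passed and Fbxw11 did not (0.06, adjusted p = 0.202).

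Of 10 clock output genes, 1 rose on water, 2 rose on antibiotic, and 3 rose and 1 fell over all libraries. Noct rose on water (0.55, adjusted p = 0.0269) and on antibiotic (0.90, adjusted p = 0.0257), where its saline libraries held 39.8 to 89.5 CPM and its leptin libraries 115 to 144. Hlf rose on antibiotic (1.10, adjusted p = 0.0481), where saline libraries held 10.8 to 23.2 CPM and leptin libraries 24.4 to 49.0, without overlap. Neither antibiotic call held without the pancreas-high libraries, at 0.62 for Noct (adjusted p = 0.423) and 1.09 for Hlf (adjusted p = 0.304), or with the covariates (adjusted p = 0.0793 and 0.138). On water Noct passed under both (adjusted p = 0.0399 and 0.00837) and stood at 0.55 in each set alone, without passing there (adjusted p = 0.0948 in set M and 0.659 in set MT). Over all libraries Noct (0.66), Hlf (0.65) and Tef (0.31, adjusted p = 0.0347) rose and Nfil3 fell (−0.51, adjusted p = 0.023). Hlf and Tef, activators at D-boxes, and Nfil3, a repressor there, thus changed in opposite directions, with Dbp, the other activator, at 0.37 (adjusted p = 0.194). Per3, whose promoter window holds the 2 D-boxes printed above, was at 0.19 without passing. Tef missed the threshold without the pancreas-high libraries (0.28, adjusted p = 0.101), where Noct, Hlf and Nfil3 passed.

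The 18 glucocorticoid response genes had 0 past the threshold on water, 3 of 17 tested higher on antibiotic and 6 of 18 higher over all libraries. In the same order, 12, 14 and 12 of the genes had positive values and 6, 3 and 6 negative ones. Those negative on water included Tat (−1.01, adjusted p = 0.254), Mt1 (−0.31, adjusted p = 0.351) and Mt2 (−0.46, adjusted p = 0.426). Tat was near 0 in set MT on water, at 0.0898 to 0.238 CPM with saline and 0.036 to 0.152 with leptin. In set M it held 3.13 to 51.5 CPM with saline and 3.23 to 30.1 with leptin. Fkbp5, which encodes a chaperone of the glucocorticoid receptor, rose on antibiotic (1.48, adjusted p = 0.0282), as did Tsc22d3 (0.84, adjusted p = 0.016) and Bcl6 (1.00, adjusted p = 0.0098). Tsc22d3 held 49.8 to 60.5 CPM with saline and 80.6 to 115 with leptin there, without overlap, as Per1 did. Without the pancreas-high libraries none of these 3 antibiotic calls held, at 1.80 for Fkbp5 (adjusted p = 0.256), 0.80 for Tsc22d3 (adjusted p = 0.307) and 0.85 for Bcl6 (adjusted p = 0.304), nor with the covariates (adjusted p = 0.0538, 0.0684 and 0.0538). Of the 6 genes higher over all libraries, 4 passed without the pancreas-high libraries (Tsc22d3, Klf9, Bcl6 and Hif3a) and Sgk1 and Ddit4, named here after their values were seen, did not (adjusted p = 0.111 and 0.121). Over all libraries the medians of the log2 fold change were 0.24 for the glucocorticoid list, 0.15 for clock output and 0.04 for the clock regulators, beside −0.01 for all genes tested. Of 15 CREB and immediate early genes, Nr4a1 fell on water (−1.20, adjusted p = 0.017) and on antibiotic (−1.62, adjusted p = 0.0481), and over all libraries Nr4a1 (−1.33), Fosb (−1.08) and Egr1 (−0.70) fell and none rose. Without the pancreas-high libraries Nr4a1 was at −1.16 on water (adjusted p = 0.0399) and at −0.65 on antibiotic, where the call was lost (adjusted p = 0.646), and Egr1 over all libraries was at −0.54 (adjusted p = 0.149). Within the sets Nr4a1 on water was at −1.51 in set M (adjusted p = 0.0735) and −0.79 in set MT (adjusted p = 0.668). Of the 7 list genes called on antibiotic, 0 passed without the pancreas-high libraries or with the covariates, and leaving out Saline-antibiotic 1, Leptin-antibiotic 2 or Leptin-antibiotic 3 alone each ended 6 of the 7 calls, all but that of Bcl6. Whether any of these lists accounts for the Per1 value was not tested.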

How the data were processed

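Libraries were stranded, made from 150 ng of duodenal total RNA depleted of ribosomal RNA and read from both ends, per the labels' protocols. The deposited values are whole-number read counts per gene symbol, not normalised, in a table that the authors named as filtered. Per the submitters' processing notes the tools were FastQC, HISAT2, featureCounts and edgeR 3.42.0 on mm10; the filter, annotation and strand setting are not given in sources used here. Rn45s took 2.87% to 13.3% of a library's counts. Genes were tested with edgeR 4.0.16 in R 4.3.3 (quasi-likelihood F test, TMM factors, filterByExpr, Benjamini-Hochberg adjustment over all genes tested, threshold 0.05). Leptin on water was fitted in 27 libraries with set as a term, comparisons with antibiotic in the 24 libraries of set MT, and leptin over all in 39 libraries with set and drinking water as terms. Standard errors were derived as the absolute log2 fold change divided by the root of F. CPM are after TMM scaling, and log2 CPM used a prior count of 2. The fits were tested on simulated data. Alternatives were DESeq2 1.42.0, limma voom 3.58.1, other scaling factors, no filter, covariates, a replicate block and leaving out libraries. Named were the 10 members, up to 4 called genes of each pathway list with the lowest p and, for 3 members, the 5 genes with the highest and the 5 with the lowest r. The members and lists were chosen with earlier results of these data known. The labels do not say that each library is a separate animal, so p-values measure the spread between these libraries, which may be technical. No 2 libraries of 1 set and group (109 pairs) were identical (chi-square per degree of freedom 19.7 to 201).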

Additional observations from a re-analysis of the deposited data

Results flagged for a closer look

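Each loop gene was examined in each of the 6 combinations of set and group for a library far from the rest, and 6 of the 60 were marked, where chance marks about 1 in 20 groups. In Saline-antibiotic 5, a library high in pancreas genes, Arntl was at 28.4 CPM (others 16.8 to 19.5) and Nr1d2 at 83.1 CPM (others 105 to 116). In Leptin-water 12, Nr1d2 was at 148 CPM (others 108 to 120) and Cry1 at 19.0 CPM (others 10.3 to 12.3), and Arntl had there the lowest value of all 39 libraries, 9.90 CPM. Per1 was at 83.7 CPM in Saline-water 5 of set M (others 43.9 to 58.1). Per3 was at 53.8 CPM in Leptin-water 4 of set M (others 38.3 to 42.8).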

How the results depend on the processing

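On water the count of loop genes past the threshold was 0, and 2 with DESeq2, with limma voom or with tissue covariates (Per1 and Nr1d2 each time); it was 0 to 2 when single libraries were left out, higher without Saline-water 5, 10, 13 or 14. On antibiotic the count of 1 became 2 with DESeq2 and 0 with limma voom, with upper quartile factors, without the pancreas-high libraries or with tissue covariates, and was 0 to 1 when single libraries were left out, Per1 passing only without Saline-water 9, 10, 12 or 13, Leptin-water 11 or 12, Saline-antibiotic 6 or Leptin-antibiotic 6. Antibiotic in leptin mice gave 1 with limma voom in place of 0. Leptin over all libraries gave 3, 1 without set M (chosen after seeing the data) and 2 to 3 without single libraries, Per2 being lost in 11 of 39 such fits (Saline-water 1, 9, 11 and 12, Leptin-water 2 and 12, Saline-antibiotic 1 and 5, Leptin-antibiotic 1, 2 and 5). Per2 was also lost over all libraries with limma voom and without the pancreas-high libraries. The comparison of the sets gave 3, and 2 to 4 without single libraries, Arntl being lost without Saline-water 3, 7, 9, 11 or 13 and Per3 gained without Saline-water 14. Arntl was also lost there with limma voom and with tissue covariates. The replicate numbers do not pair the samples: correlations of same-numbered deviations lay between −0.278 and 0.251 in set M, −0.152 and 0.0812 in set MT on water and −0.262 and 0.581 on antibiotic. With the replicate block 0 loop genes passed on water and 1 on antibiotic, as without it.

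Signs turned for values near 0: Clock on antibiotic (0.0243 with limma voom, 0.00557 without the pancreas-high libraries, −0.041 to 0.0438 without single libraries), Nr1d1 over all (−0.00357, −0.0186, −0.0131 to 0.0447, in the same order) and Nr1d1 on water (−0.0816 to 0.00968 without single libraries). Between the sets they turned for Npas2 (−0.0201 with covariates), Cry1 (0.00459 with DESeq2, 0.0211 with upper quartile and 0.0046 with RLE factors, −0.0698 to 0.0683 without single libraries), Per1 (−0.335 to 0.0191) and Nr1d2 (−0.171 to 0.000896).

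The count over all genes moved more. On water 51 became 173 with DESeq2, 128 with limma voom, 137 with covariates, 33 without the pancreas-high libraries, 5 in set M, 8 in set MT and 0 with the block (6 in the same libraries without it). On antibiotic 84 became 459 with DESeq2, 51 with upper quartile factors, 13 with the block and 0 without the pancreas-high libraries or with covariates. Antibiotic in saline mice gave 32, with DESeq2 182, limma voom 81, covariates 200, without pancreas-high libraries 17 and in a fit of its 2 groups 0. Antibiotic in leptin mice gave 372, with DESeq2 776, limma voom 1394, upper quartile 224, without pancreas-high libraries 205 and covariates 1012. The difference between sets gave 7, with DESeq2 75, without pancreas-high libraries 3 and 0 with limma voom, upper quartile factors or covariates. Leptin over all gave 492, 295 without the pancreas-high libraries and 148 without set M. Without single libraries these counts were 10 (without Leptin-water 2) to 147 (Saline-water 10) on water, 9 (Leptin-antibiotic 3) to 183 (Saline-water 13) on antibiotic, 14 to 100 and 73 to 650 for antibiotic in saline and in leptin mice, 0 to 36 for the difference between sets and 373 to 742 for leptin over all. Causes were not tested. Of the 373 other values for single loop genes, 347 kept direction and side of the threshold, and of the 1242 without single libraries, 1172 did. Of the 16 list genes called after leptin over all libraries, 11 passed without the pancreas-high libraries and 15 with covariates. Noct on water missed the threshold without Saline-water 7, Leptin-water 2 or Leptin-water 11 (adjusted p up to 0.0659).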

Other observations

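Over 39 libraries and 12629 genes outside the loop, the deviations of Nr1d1 were most like those of Specc1 (r = 0.805), Pcdh1 (0.801), B4galt6 (0.768), Ptpn21 (0.756) and Ugcg (0.756), the last of which encodes the enzyme that makes glucosylceramide. The lowest r were those of Srsf3 (−0.75) and Srsf7 (−0.748), which encode splicing factors, Rps3a1 (−0.744), Ilkap (−0.738) and Ivns1abp (−0.732). None of these 10 is among the genes named for Arntl or Per1. They were picked for their r, so no test is given.

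Of 70 relations between the 10 loop genes and 6 tissue lists or the Rn45s share, 0 had an adjusted permutation p of at most 0.05. The largest r were those of the enterocyte list with Nr1d2 (r = 0.521, rho = 0.527, permutation p = 0.00233 and 0.00161, adjusted p = 0.0871 and 0.113) and with Per2 (r = 0.487, rho = 0.494, permutation p = 0.00316 and 0.0034, adjusted p = 0.0871 and 0.119). They were 0.755 and 0.561 in set M, 0.483 and 0.465 in set MT, and 0.545 and 0.441 without the 2 libraries farthest out for the list. Nr1d1 with the lymphocyte list gave r = 0.479 (rho = 0.426, permutation p = 0.00589 and 0.0176, adjusted p = 0.0871 and 0.176; 0.0643 in set M, 0.579 in set MT and 0.431 without the 2 farthest).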
